A study of Mus musculus with 24 samples.

Results

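Mitosis and spindle genes are the genes whose products carry a cell from late interphase through chromosome separation to the splitting of the cell body. The 40 members were taken from a fixed list of G2/M, kinetochore and spindle genes, matched by Ensembl identifier and mouse symbol, and are 40 of 55401 genes in the deposited RNA table. All 40 passed the filter on low counts, which left 14749 genes for testing. They were measured in CD8 T cells of C57BL/6J mice, taken from spleen and lymph nodes with magnetic beads and activated in culture with anti-CD28 (0.5 µg/mL) and IL-2 (100 U/mL). From day 2 to day 3 of a culture of 3 days, cells received sodium lactate together with Oxyrase, sodium pyruvate (20 mM), sodium lactate (20 mM) or sodium chloride (NaCl, 20 mM), the last being the control salt. Oxyrase is a preparation of bacterial membranes that uses up the oxygen dissolved in a medium; no group had Oxyrase without lactate, so its addition is read against lactate alone. All groups shared strain, activation and culture, and no group was left without an added sodium salt. Each group had 3 RNA-seq libraries and 3 ATAC-seq libraries (a transposase cuts open chromatin), for 24 libraries in all. Nothing in the labels ties the replicates to different animals or to different cultures, so every p-value here measures the spread between these samples, which may be technical.

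Entry into mitosis is set off by the kinase CDK1 bound to cyclins A and B, after CDC25 phosphatases remove the phosphates that hold it inactive. Polo, NEK and Aurora kinases then build the spindle, and the chromosomal passenger complex corrects faulty attachments of chromosomes to it. Until every kinetochore is attached, the spindle checkpoint restrains CDC20 and the anaphase-promoting complex (APC/C); after its release, cyclin B and securin are destroyed, separase opens cohesin, and anillin and the central spindle divide the cell. Most of these genes are transcribed in G2 and mitosis under B-MYB, FOXM1 and the MuvB complex, which is recruited to a short promoter element called CHR, often beside CCAAT boxes bound by NF-Y. CD8 T cells divide rapidly in the days after activation, and the transcripts of these genes are widely used as a sign of dividing cells.

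Promoters of 5 core regulators of mitosis are printed to show where the CHR and CCAAT letters lie; the transcripts of Plk1, Ccnb2 and Cdc20 changed in the comparisons that follow, and those of Ccnb1 and Cdk1 passed no test. Each run holds 250 bases before and 50 bases after the gene start, from RefSeq (build GRCm38.p6), written 5′ to 3′ on the strand of the gene. Capitals mark the letters searched on both strands: TTTGAA or TTCGAA for CHR, and for the CCAAT box its name, which reads ATTGG on the other strand.
Ccnb1: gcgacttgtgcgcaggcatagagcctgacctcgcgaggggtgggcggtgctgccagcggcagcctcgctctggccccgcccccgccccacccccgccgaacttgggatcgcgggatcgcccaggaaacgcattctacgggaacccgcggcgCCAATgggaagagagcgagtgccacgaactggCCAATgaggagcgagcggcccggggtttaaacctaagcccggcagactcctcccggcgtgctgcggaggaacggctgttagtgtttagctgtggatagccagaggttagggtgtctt
Cdk1: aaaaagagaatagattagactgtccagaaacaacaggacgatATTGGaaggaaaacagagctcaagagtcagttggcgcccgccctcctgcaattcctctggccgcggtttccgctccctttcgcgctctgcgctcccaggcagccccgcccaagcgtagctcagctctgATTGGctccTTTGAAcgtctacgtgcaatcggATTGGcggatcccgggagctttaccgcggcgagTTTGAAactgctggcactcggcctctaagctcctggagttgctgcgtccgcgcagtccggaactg
Plk1: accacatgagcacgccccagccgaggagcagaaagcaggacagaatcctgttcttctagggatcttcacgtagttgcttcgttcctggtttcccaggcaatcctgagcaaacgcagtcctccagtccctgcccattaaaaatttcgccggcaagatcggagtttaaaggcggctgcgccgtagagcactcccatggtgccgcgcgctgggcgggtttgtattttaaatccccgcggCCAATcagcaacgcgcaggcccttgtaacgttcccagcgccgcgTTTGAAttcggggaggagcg
Ccnb2: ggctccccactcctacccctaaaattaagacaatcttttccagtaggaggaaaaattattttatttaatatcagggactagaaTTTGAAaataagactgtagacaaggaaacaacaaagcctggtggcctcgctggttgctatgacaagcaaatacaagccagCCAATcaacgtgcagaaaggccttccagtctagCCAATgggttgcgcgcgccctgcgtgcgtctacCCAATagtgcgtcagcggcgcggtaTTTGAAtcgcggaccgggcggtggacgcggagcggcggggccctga
Cdc20: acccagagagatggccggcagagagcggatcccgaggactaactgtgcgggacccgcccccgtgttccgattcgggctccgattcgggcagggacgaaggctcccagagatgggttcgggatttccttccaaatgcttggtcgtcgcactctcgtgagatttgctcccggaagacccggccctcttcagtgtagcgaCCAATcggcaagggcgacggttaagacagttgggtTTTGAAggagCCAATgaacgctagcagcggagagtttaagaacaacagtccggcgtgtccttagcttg
Ccnb1 (chr13:100786437-100786736, minus strand) encodes cyclin B1, and its window held 2 CCAAT matches and 0 CHR matches. Cdk1 (chr10:69352863-69353162, minus strand) held 3 CCAAT and 2 CHR matches. Plk1 (chr7:122159185-122159484, plus strand), which encodes Polo-like kinase 1, held 1 of each. Ccnb2 (chr9:70421505-70421804, minus strand), the gene of cyclin B2, held 3 CCAAT and 2 CHR matches, and Cdc20 (chr4:118437294-118437593, minus strand) held 2 CCAAT matches and 1 CHR match. Of the 33 members with a promoter in the table, 25 (75.8%) held TTTGAA or TTCGAA, against 5254 of 27025 promoters of all genes (19.4%). CCAAT was found in 25 (75.8%) of the members, against 37.9% of all promoters, and both kinds of letters in 22 (66.7%), against 7.7%. No match of one motif overlapped a match of the other in a member. A match describes letters and is not a measured binding site. No other letters were searched for CHR, so a window without a match is not shown to lack a CHR.

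RNA libraries held 26036288 to 39643683 counts and ATAC libraries 25308254 to 37074367. The lowest count of any member in any RNA library was 460, and the median coefficient of variation of a member within a group was 2.69% (highest 11.5%). Levels are given as CPM, each library's counts scaled to a common total with TMM factors, so they compare samples for 1 gene and not different genes. CD8 T cell markers were present throughout: the summed level of Cd3e, Cd3d, Cd8a, Cd8b1, Trac and Cd2 ranged from 1132 to 1188 CPM in lactate+Oxyrase, from 1529 to 1561 CPM in pyruvate, from 1659 to 1738 CPM in lactate and from 1725 to 1764 CPM in NaCl libraries. Of these 6 genes, 0 rose and 4 fell with Oxyrase added to lactate, so groups compared for the members also differ in CD8 markers. Markers of other cells were low, apart from Ighm and Eomes. Summed levels of the 6 myeloid and dendritic markers ranged from 5.33 to 6.95 CPM in lactate+Oxyrase, 2.93 to 3.95 CPM in pyruvate, 1.77 to 1.96 CPM in lactate and 1.5 to 1.77 CPM in NaCl libraries, most of it from Cd68, with Lyz2 at most 0.086 CPM in any library. Of the B cell markers, Cd79a and Ms4a1 stayed at or below 0.582 CPM, while Ighm averaged 69.1 CPM in lactate+Oxyrase, 147 CPM in pyruvate, 189 CPM in lactate and 204 CPM in NaCl libraries. The 2 CD4 T cell markers summed to 1.09 to 1.38 CPM in lactate+Oxyrase, 2.63 to 4.19 CPM in pyruvate, 3.95 to 4.77 CPM in lactate and 4.54 to 5.21 CPM in NaCl libraries, with Cd4 at most 0.609 CPM. The 3 NK markers summed to at most 20.1 CPM in lactate+Oxyrase, 39.6 CPM in pyruvate, 26.5 CPM in lactate and 32.3 CPM in NaCl libraries, nearly all of it Eomes, which CD8 T cells also express, with Ncr1 and Klrb1c at most 0.12 CPM. The 3 red cell markers summed to at most 0.091 CPM. The part of these shifts in the results was not tested.

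Summed over the 40 members, the transcripts made up a similar share of the RNA in all 4 groups. The summed level was 6751, 6577 and 6523 CPM in the lactate+Oxyrase libraries, 6237, 6399 and 6235 CPM in pyruvate, 6782, 6841 and 6472 CPM in lactate and 6212, 6307 and 6493 CPM in NaCl libraries. Lactate+Oxyrase and lactate libraries overlapped, as did pyruvate and NaCl libraries, and lactate and NaCl libraries overlapped through lactate 3 and NaCl 3. In this sum, the 3 lactate+Oxyrase libraries lay above the 3 NaCl libraries, and the 3 pyruvate libraries lay below the 3 lactate libraries. Mki67 (mean 1187 CPM in lactate+Oxyrase and 1054 CPM in NaCl) and Top2a (958 and 895 CPM) had the highest CPM of the members. They therefore weigh most in the sum. Group means were 6617 ± 119 CPM in lactate+Oxyrase, 6290.4 ± 93.9 CPM in pyruvate, 6698 ± 198 CPM in lactate and 6337 ± 143 CPM in NaCl cells (SD, n = 3 each), and no test was run on this sum. As a share of all counts before scaling, the members took 0.652 ± 0.00955% in lactate+Oxyrase, 0.632 ± 0.00626% in pyruvate, 0.669 ± 0.0153% in lactate and 0.640 ± 0.00945% in NaCl libraries. By this share lactate+Oxyrase and NaCl libraries overlapped, with 0.642% at lactate+Oxyrase 3, 0.644% at NaCl 2 and 0.647% at NaCl 3. Per library, the Wilson 95% interval of this share was 0.658% to 0.664% at lactate+Oxyrase 1 and 0.644% to 0.650% at NaCl 3; it covers counting error only. The mean of the members' log2 CPM was 6.842, 6.815 and 6.803 in the lactate+Oxyrase libraries and 6.771, 6.786 and 6.823 in the NaCl libraries, which overlapped. Within groups, lactate 3 was the lowest of its group for 21 of 40 members and NaCl 3 the highest for 26. In bulk RNA, fewer dividing cells and less of these transcripts per dividing cell cannot be told apart.

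**Figure D1:**
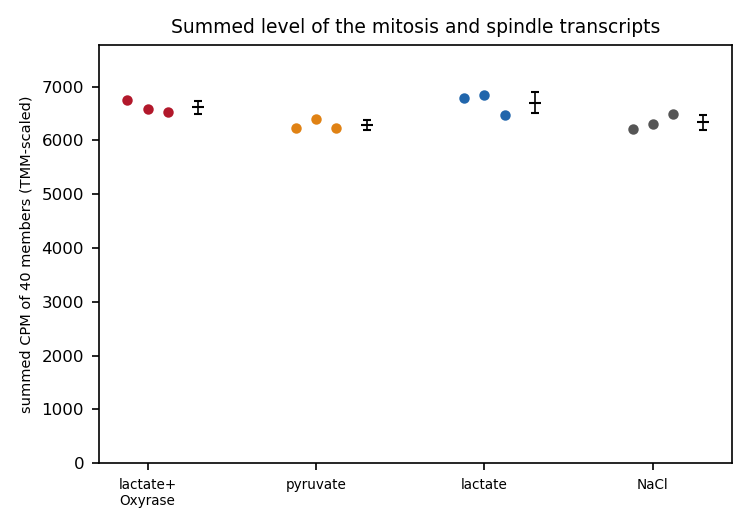
Summed level (CPM after TMM scaling, axis from 0) of the 40 mitosis and spindle transcripts in each library; points are libraries, and the bar beside them is the mean with the SD of 3 libraries. The 12 libraries lie between 6212 and 6841 CPM, with lactate+Oxyrase above NaCl in this sum and pyruvate below lactate.

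Although the sum moved little, single members moved in both directions. Each of 5 comparisons was tested with edgeR's quasi-likelihood test over all genes, with Benjamini-Hochberg adjustment; a member rose or fell where its adjusted p was under 0.05, and sizes of change are on the log2 scale with their standard errors. With Oxyrase added to lactate, 9 of 40 members rose and 14 fell (57.5% called, against 49.7% of all genes tested; 26.1% of all genes rose and 23.6% fell), and their median log2 fold change was -0.01, against -0.003 for all genes. Lactate with Oxyrase set against NaCl gave 15 members higher and 9 lower (60.0%, against 50.8% of all genes, 26.5% higher and 24.3% lower), with a median of 0.02. Pyruvate against NaCl gave 3 members higher and 5 lower (20.0%, against 15.7% of all genes, 9.4% higher and 6.28% lower), with a median of -0.03. Lactate against NaCl gave 3 members higher and 0 lower (7.5%, against 7.73% of all genes, 3.61% higher and 4.12% lower), with a median of 0.06. Pyruvate against lactate gave 4 members higher and 15 lower (47.5%, against 24.0% of all genes, 13.0% higher and 10.9% lower), with a median of -0.10. In pyruvate against lactate 37.5% of the members fell, against 10.9% of all genes. In the other comparisons the shares of members called and of all genes lay closer together. None of these shares is matched for the level of the genes.

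The changes were small. No member reached a 2-fold change in any comparison, whereas 1206 genes did so among those called with Oxyrase added to lactate and 1249 with lactate+Oxyrase against NaCl. The members' log2 fold changes ranged from -0.49 to 0.41 with Oxyrase added to lactate, from -0.49 to 0.50 against NaCl, from -0.20 to 0.20 for pyruvate against NaCl, from -0.12 to 0.19 for lactate against NaCl and from -0.25 to 0.20 for pyruvate against lactate. The median size of the change, regardless of sign, was 0.127 with Oxyrase added to lactate for members and 0.243 for all genes. It was 0.122 and 0.249 for lactate+Oxyrase against NaCl, 0.061 and 0.123 for pyruvate against NaCl, 0.061 and 0.105 for lactate against NaCl, and 0.119 and 0.141 for pyruvate against lactate. No member had fewer than 460 counts in a library, whereas the genes tested include some of far lower level, such as Cd4 (at most 0.609 CPM). The medians, the 2-fold counts and the shares called are thus not matched for level. The whole 95% interval of the change lay within 1.25-fold in either direction for 30 of 40 members in each Oxyrase comparison, for 40 with pyruvate against NaCl, for 39 with lactate against NaCl and for 38 with pyruvate against lactate; this margin was chosen after the values were seen. Of the 40 members, 33 (82.5%) passed the test in at least 1 comparison, 12 (30.0%) in at least 3 and 0 in all 5, against 65.6%, 20.7% and 0.78% of all genes tested. The 7 that passed in none were Ccnb1, Cdk1, Cenpf, Foxm1, Kif2c, Pttg1 and Ttk. The comparisons share groups, so their counts are not independent of each other.

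**Figure D2:**
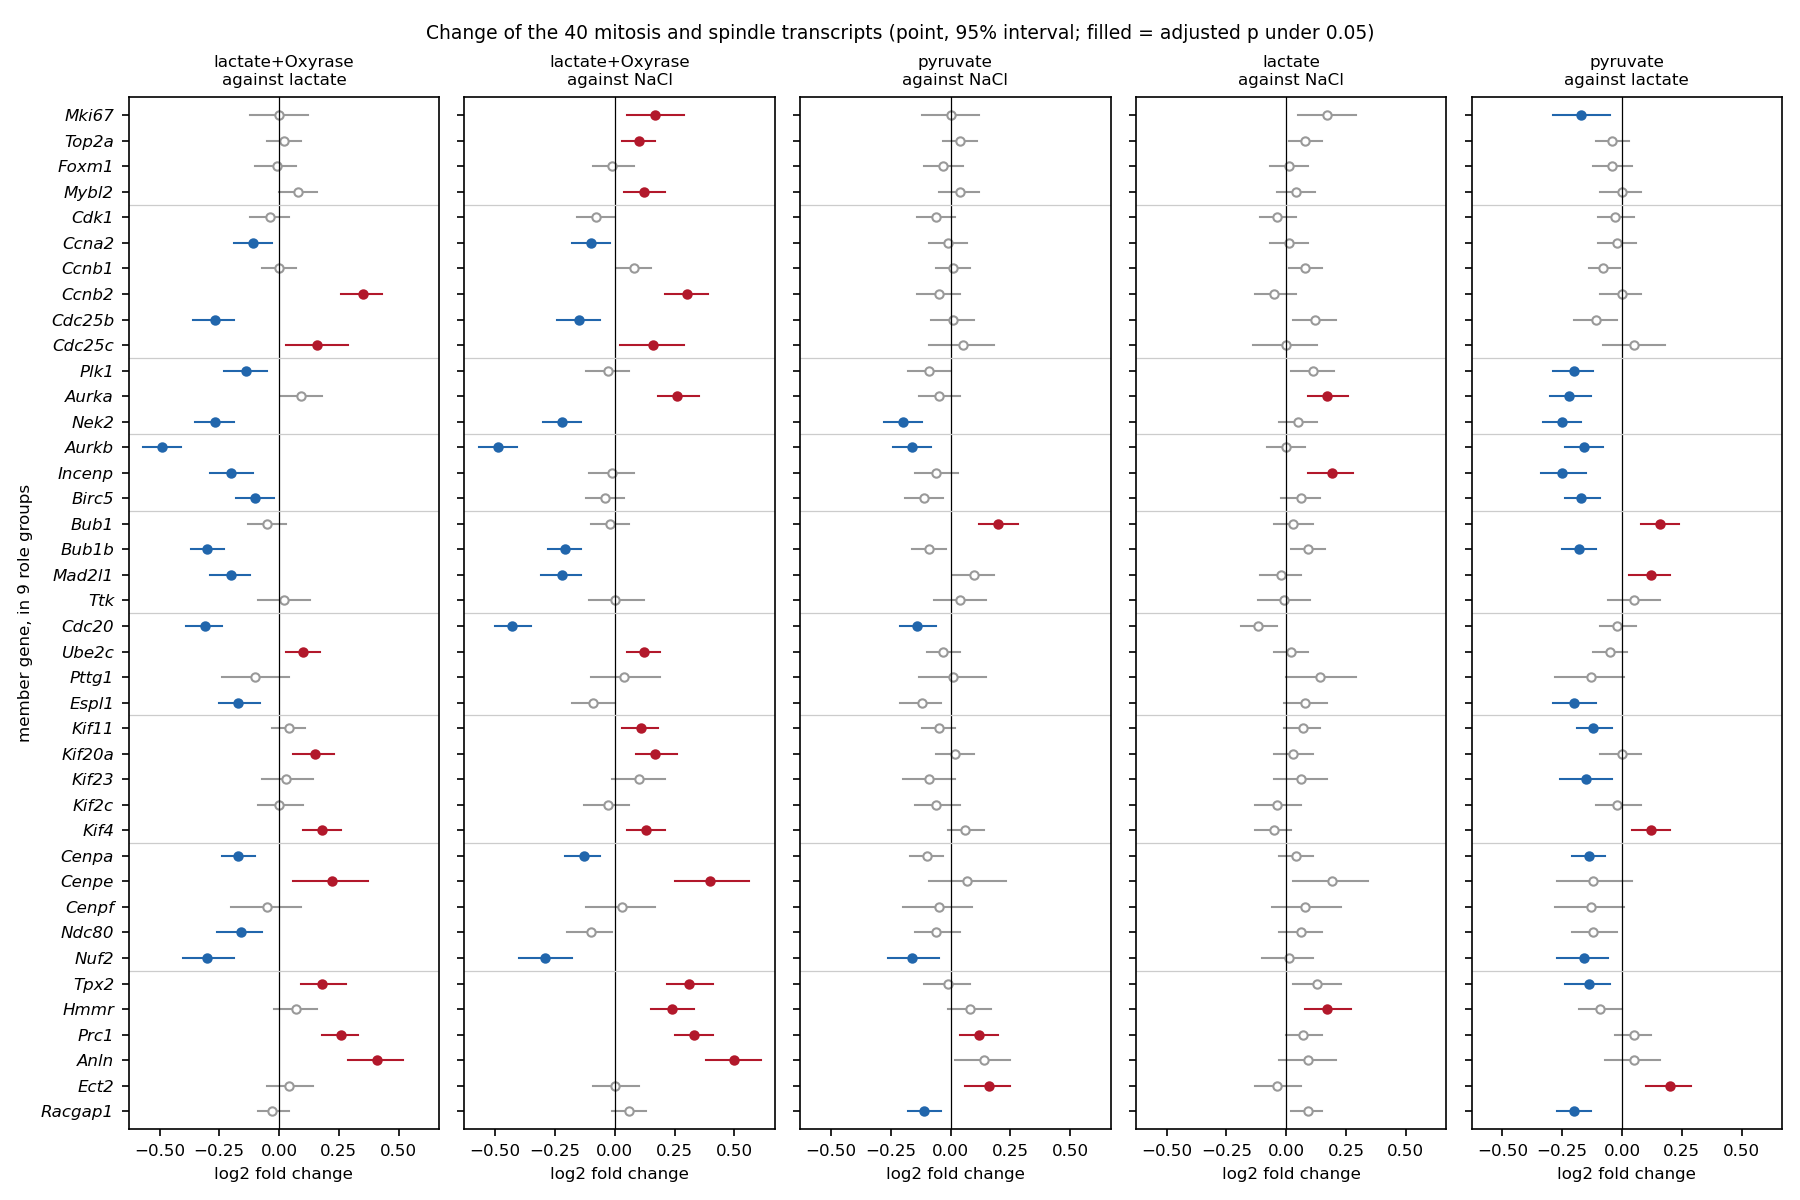
Log2 fold change (horizontal axis) of each of the 40 members (rows, in 9 role groups) in the 5 comparisons (panels); points are estimates, lines 95% intervals, and filled points passed the test, red where higher and blue where lower in the group named first. The widest changes are those of Aurkb and Cdc20 below 0 and of Anln, Ccnb2 and Cenpe above 0 in the Oxyrase panels.

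Among the proliferation marker, the topoisomerase and the transcription factors, 0 of 4 passed the test with Oxyrase added to lactate, while 3 rose with lactate+Oxyrase against NaCl. Among all genes, 49.7% passed in the first comparison and 26.5% rose in the second. Mki67, whose protein coats mitotic chromosomes and marks cycling cells, had 1242, 1157 and 1160.0 CPM in the lactate+Oxyrase libraries, 1070.0, 1097 and 1006 CPM in pyruvate, 1257, 1226 and 1078 CPM in lactate and 989.8, 1045 and 1128 CPM in NaCl libraries. The lactate+Oxyrase libraries lay above all NaCl libraries but among the lactate libraries, and lactate 3 lay among the NaCl libraries. The log2 fold change was 0.17 ± 0.06 (adjusted p = 0.0187) for lactate+Oxyrase against NaCl and 0.00 ± 0.06 with Oxyrase added to lactate (adjusted p = 0.995, 95% interval -0.12 to 0.12). For lactate against NaCl it was 0.17 ± 0.06 (adjusted p = 0.0734) and for pyruvate against lactate -0.17 ± 0.06 (adjusted p = 0.0417); pyruvate and lactate libraries overlapped, and that call was lost without lactate 1, lactate 2, pyruvate 1, pyruvate 3, NaCl 2 or lactate+Oxyrase 2. The call against NaCl was lost without NaCl 1, NaCl 2 or lactate+Oxyrase 1. Top2a, the topoisomerase that untangles sister chromatids, had 966, 965 and 943 CPM in the lactate+Oxyrase libraries, 908, 939 and 912 CPM in pyruvate, 961, 971 and 907 CPM in lactate and 881, 896 and 907 CPM in NaCl libraries. Its lactate+Oxyrase libraries lay above all NaCl libraries, with a log2 fold change of 0.10 ± 0.03 (adjusted p = 0.0213), a call lost without NaCl 1, lactate+Oxyrase 1 or lactate+Oxyrase 2 and with scaling by library totals. Mybl2, the gene of B-MYB, rose against NaCl by 0.12 ± 0.04 (adjusted p = 0.014), a call lost without NaCl 1 or lactate+Oxyrase 3 and with scaling by library totals. Foxm1, a transcription factor of the G2/M programme, had 80.7, 80.1 and 79.0 CPM in the lactate+Oxyrase libraries, 80.2, 76.6 and 78.9 CPM in pyruvate, 76.7, 82.6 and 82.7 CPM in lactate and 80.9, 78.6 and 81.3 CPM in NaCl libraries. All 4 groups overlapped, and its log2 fold change was -0.01 ± 0.04 with Oxyrase added to lactate (95% interval -0.10 to 0.07) and -0.01 ± 0.04 against NaCl (95% interval -0.09 to 0.08).

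CDK1, its cyclins and its phosphatases split. With Oxyrase added to lactate, 2 of 6 rose and 2 fell, as many as against NaCl, and 0 passed the test in the other 3 comparisons. The shares of all genes were 26.1% higher and 23.6% lower with Oxyrase added to lactate, and 26.5% and 24.3% against NaCl. Ccnb2 (chr9:70407689-70421554), the gene of cyclin B2, had 73.6, 75.5 and 74.0 CPM in the lactate+Oxyrase libraries, 58.9, 55.0 and 61.4 CPM in pyruvate, 58.5, 58.5 and 58.5 CPM in lactate and 59.8, 60.5 and 61.1 CPM in NaCl libraries. All lactate+Oxyrase libraries lay above the other 9. Its log2 fold change was 0.35 ± 0.04 (adjusted p = 2.29e-06) with Oxyrase added to lactate and 0.30 ± 0.04 (adjusted p = 1.2e-05) against NaCl, and both calls held under all 19 alternatives run. Ccnb1, the gene of cyclin B1, had 213, 207 and 210.3 CPM in the lactate+Oxyrase libraries, 195, 206 and 199 CPM in pyruvate, 208, 214 and 209.7 CPM in lactate and 198, 201 and 199 CPM in NaCl libraries. Lactate+Oxyrase and lactate libraries overlapped, with a log2 fold change of 0.00 ± 0.03 (adjusted p = 0.966, 95% interval -0.07 to 0.07); against NaCl it was 0.08 ± 0.03 (adjusted p = 0.0535). Cdk1 itself had 115, 122 and 123 CPM in the lactate+Oxyrase libraries, 118, 123 and 122 CPM in pyruvate, 123, 126 and 122 CPM in lactate and 128, 129 and 123 CPM in NaCl libraries. The 4 groups lay close together, and the log2 fold change of Cdk1 was -0.04 ± 0.04 with Oxyrase added to lactate (adjusted p = 0.385, 95% interval -0.12 to 0.04) and -0.08 ± 0.04 against NaCl (adjusted p = 0.0955, 95% interval -0.16 to 0.00). Cdc25b, a phosphatase that starts the activation of CDK1, averaged 53.6 ± 1.66 CPM in lactate+Oxyrase, 60.0 ± 0.655 CPM in pyruvate, 64.8 ± 2.08 CPM in lactate and 59.6 ± 1.55 CPM in NaCl cells. It fell with Oxyrase added to lactate (-0.27 ± 0.04, adjusted p = 3.02e-05) and against NaCl (-0.15 ± 0.04, adjusted p = 0.00554). Cdc25c, the related phosphatase, rose by 0.16 ± 0.06 (adjusted p = 0.0446) and 0.16 ± 0.06 (adjusted p = 0.0485) in the same comparisons, but these calls were lost under 14 and 16 of the 19 alternatives. Only leaving out lactate+Oxyrase 2 or lactate+Oxyrase 3 among the single libraries, or NaCl 3 for the first call, kept them. Ccna2, the gene of cyclin A2, fell with Oxyrase added to lactate (-0.11 ± 0.04, adjusted p = 0.0192) and against NaCl (-0.10 ± 0.04, adjusted p = 0.0363), calls lost without lactate+Oxyrase 1 or lactate+Oxyrase 3, the first also without lactate 2 and the second without NaCl 1.

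The mitotic kinases and the chromosomal passenger complex held the member that fell most. Aurkb (chr11:69045624-69051664), the kinase of the passenger complex, had 85.6, 86.5 and 83.2 CPM in the lactate+Oxyrase libraries, 105, 107 and 109 CPM in pyruvate, 123, 117 and 120.2 CPM in lactate and 115, 119.9 and 125 CPM in NaCl libraries. Lactate+Oxyrase libraries were the lowest of the 12, the pyruvate libraries came next, and the lactate and NaCl libraries overlapped. Aurkb fell 1.41-fold with Oxyrase added to lactate, a log2 fold change of -0.49 ± 0.04 (adjusted p = 9.07e-09), and its log2 fold change against NaCl was -0.49 ± 0.04 (adjusted p = 9.13e-09). It also fell with pyruvate, against NaCl (-0.16 ± 0.04, adjusted p = 0.00665) and against lactate (-0.16 ± 0.04, adjusted p = 0.00414). For lactate against NaCl its log2 fold change was 0.00 ± 0.04 (adjusted p = 0.998, 95% interval -0.08 to 0.08).

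Incenp, the scaffold of the same complex, had 186, 174 and 168 CPM in the lactate+Oxyrase libraries, 171, 171 and 169 CPM in pyruvate, 193, 210.4 and 203 CPM in lactate and 170.4, 177 and 185 CPM in NaCl libraries. Lactate libraries lay above the other 9. Incenp fell with Oxyrase added to lactate (-0.20 ± 0.04, adjusted p = 0.00109) and with pyruvate against lactate (-0.25 ± 0.04, adjusted p = 0.000619), and rose with lactate against NaCl (0.19 ± 0.04, adjusted p = 0.0165). The last call was lost without NaCl 1, NaCl 2, lactate 2 or lactate 3. Birc5 (survivin), the subunit that guides the complex to centromeres, fell with pyruvate against lactate (-0.17 ± 0.04, adjusted p = 0.00384) and with Oxyrase added to lactate (-0.10 ± 0.04, adjusted p = 0.0352), the last call lost without lactate 2, lactate 3, lactate+Oxyrase 2 or lactate+Oxyrase 3. All 3 member genes from the complex (Aurkb, Incenp and Birc5) thus fell in both comparisons against lactate, which share the lactate libraries.

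Nek2, a kinase that parts the centrosomes, had 55.1, 55.5 and 53.1 CPM in the lactate+Oxyrase libraries, 55.2, 56.1 and 54.1 CPM in pyruvate, 65.7, 67.1 and 64.3 CPM in lactate and 63.1, 63.1 and 64.1 CPM in NaCl libraries. Lactate+Oxyrase and pyruvate libraries overlapped and lay below all lactate and NaCl libraries. Nek2 fell in 4 of the 5 comparisons. Its log2 fold change was -0.27 ± 0.04 (adjusted p = 1.58e-05) with Oxyrase added to lactate, -0.22 ± 0.04 (adjusted p = 0.000145) with lactate+Oxyrase against NaCl, -0.20 ± 0.04 (adjusted p = 0.00179) with pyruvate against NaCl and -0.25 ± 0.04 (adjusted p = 0.00014) with pyruvate against lactate. Plk1 had 122, 119 and 120.2 CPM in the lactate+Oxyrase libraries, 108, 115 and 123 CPM in pyruvate, 135, 133 and 130.3 CPM in lactate and 124, 120.0 and 125 CPM in NaCl libraries. The lactate libraries were the highest 3 of the 12. Plk1 fell with Oxyrase added to lactate (-0.14 ± 0.04, adjusted p = 0.00932) and with pyruvate against lactate (-0.20 ± 0.04, adjusted p = 0.00182); against NaCl the log2 fold changes were -0.03 ± 0.04 (95% interval -0.12 to 0.06) for lactate+Oxyrase and -0.09 ± 0.04 (95% interval -0.18 to 0.00) for pyruvate. Aurka, the Aurora kinase of the spindle poles, gave another pattern. It averaged 87.8 ± 3.86 CPM in lactate+Oxyrase, 70.8 ± 2.24 CPM in pyruvate, 82.4 ± 0.954 CPM in lactate and 73.1 ± 2.03 CPM in NaCl cells, and rose against NaCl in both lactate+Oxyrase (0.26 ± 0.04, adjusted p = 3.91e-05) and lactate (0.17 ± 0.04, adjusted p = 0.0172). The call in lactate cells was lost without NaCl 1, NaCl 2 or lactate 2. It fell with pyruvate against lactate (-0.22 ± 0.04, adjusted p = 0.000933), and with Oxyrase added to lactate its log2 fold change was 0.09 ± 0.04 (adjusted p = 0.0711).

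**Figure D3:**
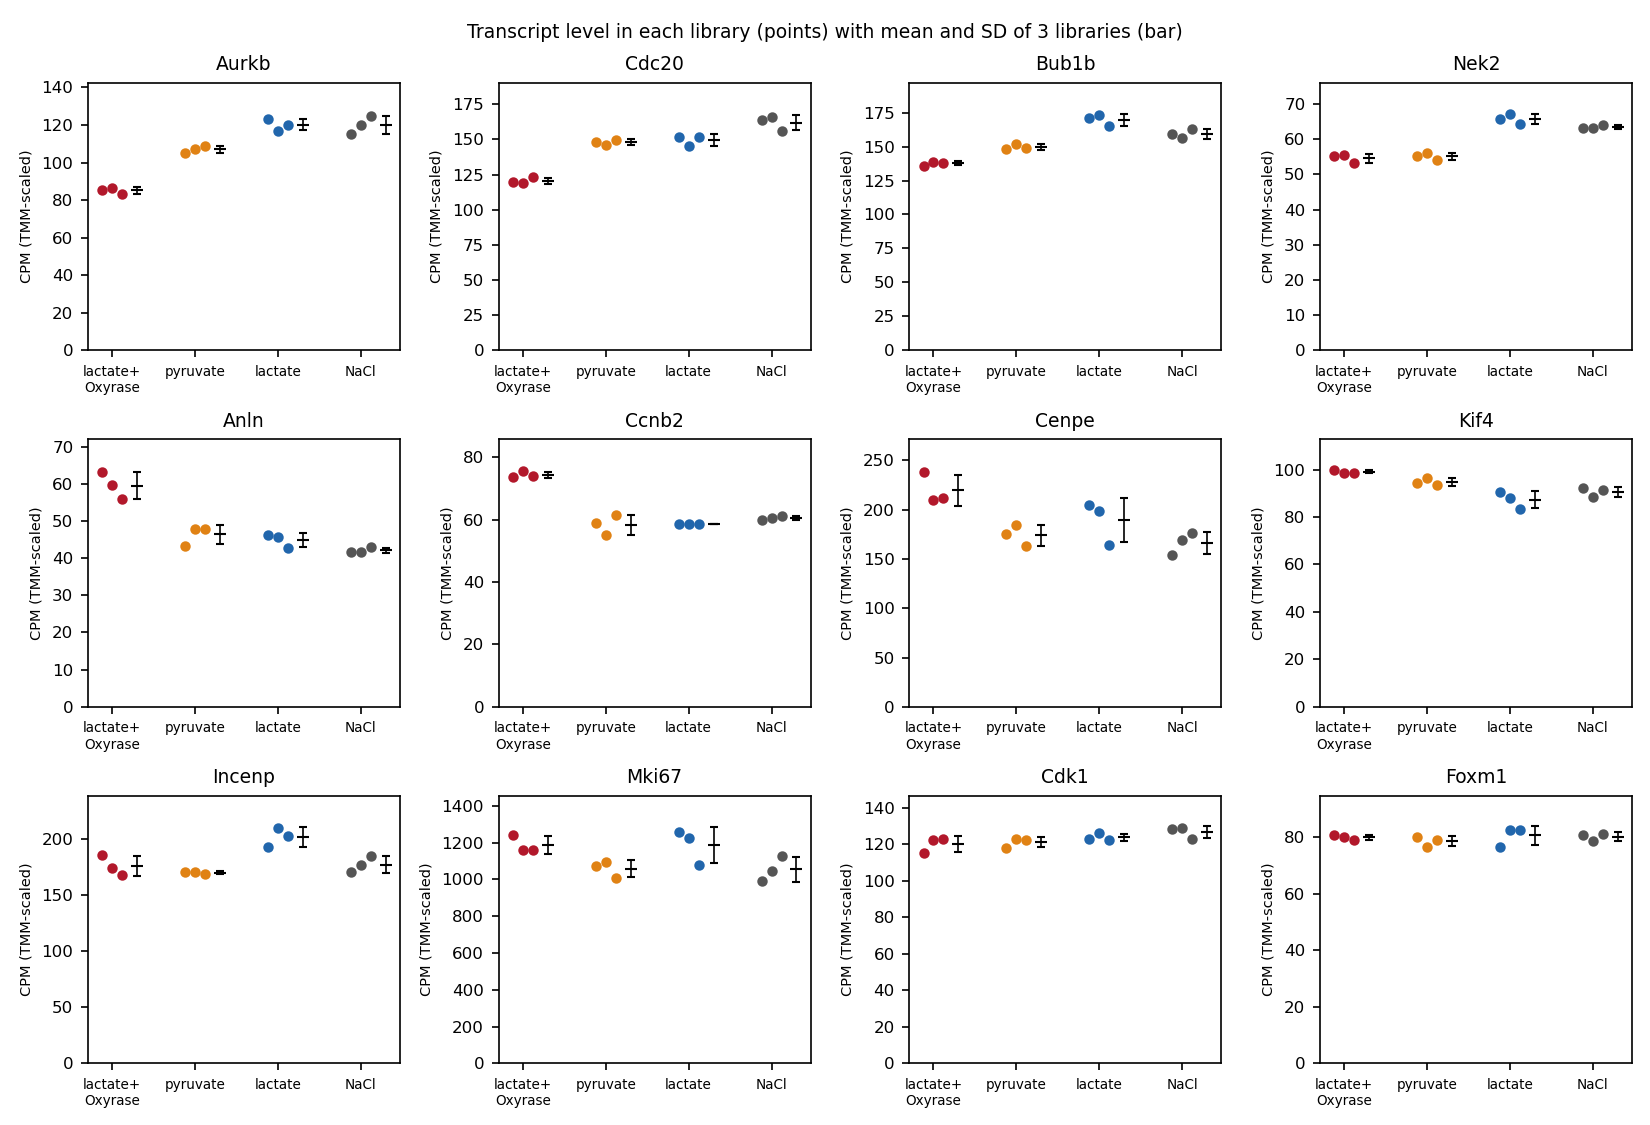
Level (CPM after TMM scaling, axes from 0) of 12 members in each library, with groups along the horizontal axis; points are libraries, and the bar beside them is the mean with the SD of 3 libraries. Aurkb, Cdc20 and Bub1b lie lowest and Anln, Ccnb2 and Kif4 highest in the lactate+Oxyrase libraries, while Cdk1 and Foxm1 differ little between groups.

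Of the 4 members in the spindle checkpoint group, 2 fell in each Oxyrase comparison and 0 rose. Among all genes, 26.1% rose and 23.6% fell with Oxyrase added to lactate, and 26.5% and 24.3% with lactate+Oxyrase against NaCl. Bub1b, the gene of the checkpoint protein BUBR1 that binds and restrains CDC20, had 136, 139 and 138 CPM in the lactate+Oxyrase libraries, 148, 152 and 149 CPM in pyruvate, 171, 173 and 165 CPM in lactate and 159, 156 and 163 CPM in NaCl libraries. The groups did not overlap, and the order from low to high was lactate+Oxyrase, pyruvate, NaCl and lactate. Bub1b fell with Oxyrase added to lactate (-0.30 ± 0.03, adjusted p = 8.1e-07), with lactate+Oxyrase against NaCl (-0.21 ± 0.03, adjusted p = 5.55e-05) and with pyruvate against lactate (-0.18 ± 0.03, adjusted p = 0.000678). Mad2l1, which also restrains CDC20, averaged 119.7 ± 3.11 CPM in lactate+Oxyrase, 149.6 ± 3.19 CPM in pyruvate, 138 ± 6.6 CPM in lactate and 139.8 ± 5.09 CPM in NaCl cells. It fell in both Oxyrase comparisons (-0.20 ± 0.04, adjusted p = 0.00051, and -0.22 ± 0.04, adjusted p = 0.000201) and rose with pyruvate against lactate (0.12 ± 0.04, adjusted p = 0.04), the last call lost without lactate 1, lactate 3 or any 1 pyruvate library. Bub1, a checkpoint kinase, rose with pyruvate, by 0.20 ± 0.04 (adjusted p = 0.00208) against NaCl and 0.16 ± 0.04 (adjusted p = 0.00432) against lactate, and its log2 fold change with Oxyrase added to lactate was -0.05 ± 0.04 (95% interval -0.13 to 0.03). Ttk, the kinase at the top of the checkpoint, passed in no comparison, with log2 fold changes from -0.01 to 0.05.

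Cdc20 (chr4:118432901-118437343), the activator of the APC/C and the target of the checkpoint, had 120.0, 119 and 123 CPM in the lactate+Oxyrase libraries, 148, 146 and 149.9 CPM in pyruvate, 152, 145 and 152 CPM in lactate and 164, 166 and 156 CPM in NaCl libraries. Lactate+Oxyrase libraries were the lowest 3 of the 12 and NaCl libraries the highest 3, while pyruvate and lactate libraries overlapped. Cdc20 fell with Oxyrase added to lactate (-0.31 ± 0.04, adjusted p = 1.41e-06) and against NaCl (-0.43 ± 0.04, adjusted p = 2.73e-08). With pyruvate against NaCl it fell by 0.14 ± 0.04 (adjusted p = 0.0148), a call lost without NaCl 2 or pyruvate 2, and with lactate against NaCl its log2 fold change was -0.12 ± 0.04 (adjusted p = 0.0513). Ube2c, the enzyme that brings ubiquitin to the APC/C, rose by 0.10 ± 0.03 (adjusted p = 0.0151) with Oxyrase added to lactate, a call lost without lactate 2 or lactate+Oxyrase 3, and by 0.12 ± 0.03 (adjusted p = 0.00571) against NaCl. Espl1, the gene of separase, fell with Oxyrase added to lactate (-0.17 ± 0.04, adjusted p = 0.00335) and with pyruvate against lactate (-0.20 ± 0.04, adjusted p = 0.00208). Pttg1, the gene of securin, which holds separase inactive, passed in no comparison, and its log2 fold change with Oxyrase added to lactate was -0.10 ± 0.07 (95% interval -0.24 to 0.04).

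Kinesins are motor proteins that move along or take apart microtubules. Of the 5 members in this group, 2 rose with Oxyrase added to lactate, 3 rose against NaCl and 0 fell in either. The shares of all genes were 26.1% higher and 23.6% lower in the first comparison, and 26.5% and 24.3% in the second. Kif4, a chromosome-bound kinesin of the central spindle, had 99.8, 98.7 and 98.6 CPM in the lactate+Oxyrase libraries, 94.4, 96.6 and 93.4 CPM in pyruvate, 90.6, 88.1 and 83.4 CPM in lactate and 92.3, 88.4 and 91.4 CPM in NaCl libraries. Again the lactate+Oxyrase libraries lay above the other 9, and the pyruvate libraries lay above the lactate and NaCl libraries. It rose by 0.18 ± 0.04 (adjusted p = 0.000581) with Oxyrase added to lactate, by 0.13 ± 0.04 (adjusted p = 0.00887) against NaCl (a call lost without NaCl 2) and by 0.12 ± 0.04 (adjusted p = 0.0264) with pyruvate against lactate (a call lost without lactate 3, pyruvate 1 or pyruvate 2). Kif20a, which brings the passenger complex to the central spindle, rose by 0.15 ± 0.04 (adjusted p = 0.00464) with Oxyrase added to lactate and 0.17 ± 0.04 (adjusted p = 0.0012) against NaCl, and both calls held under all 19 alternatives. Kif11, the motor that pushes the spindle poles apart, rose against NaCl by 0.11 ± 0.03 (adjusted p = 0.0164), a call lost without lactate+Oxyrase 2 and with scaling by library totals. Kif11 fell with pyruvate against lactate (-0.12 ± 0.03, adjusted p = 0.0205), as did Kif23, the motor of the centralspindlin complex (-0.15 ± 0.05, adjusted p = 0.0412). Both calls were lost without lactate 2, pyruvate 1 or pyruvate 3, that of Kif11 also without lactate 1 and that of Kif23 also without NaCl 1 or lactate+Oxyrase 2. Kif2c, which shortens microtubules at the centromere, passed in no comparison, with a log2 fold change of 0.00 ± 0.04 with Oxyrase added to lactate (95% interval -0.09 to 0.10).

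At the centromere and kinetochore, 3 of 5 members fell with Oxyrase added to lactate and 1 rose, against 23.6% and 26.1% of all genes. Cenpe (chr3:135212563-135273540), the kinetochore motor that moves chromosomes to the spindle equator, had 238, 209.7 and 212 CPM in the lactate+Oxyrase libraries, 175, 184 and 163 CPM in pyruvate, 205, 199 and 164 CPM in lactate and 154, 169 and 176 CPM in NaCl libraries. The lactate+Oxyrase libraries were the highest 3 of the 12, and lactate 3 was far below lactate 1 and lactate 2. Its log2 fold change was 0.40 ± 0.07 (adjusted p = 0.000202) against NaCl and 0.22 ± 0.07 (adjusted p = 0.0214) with Oxyrase added to lactate; the last was lost without lactate 3 or lactate+Oxyrase 1. Nuf2, a subunit of the NDC80 complex that grips microtubules, averaged 51.3 ± 3.22 CPM in lactate+Oxyrase, 56.2 ± 0.0694 CPM in pyruvate, 63.0 ± 2.8 CPM in lactate and 62.7 ± 2.94 CPM in NaCl cells. It fell with Oxyrase added to lactate (-0.30 ± 0.05, adjusted p = 0.000103) and against NaCl (-0.29 ± 0.05, adjusted p = 0.000139). With pyruvate it fell against NaCl (-0.16 ± 0.05, adjusted p = 0.0453) and against lactate (-0.16 ± 0.05, adjusted p = 0.0244), calls lost without any 1 pyruvate library or lactate 3, the first also without any 1 NaCl library and the second without lactate 2. Its partner Ndc80 fell with Oxyrase added to lactate (-0.16 ± 0.04, adjusted p = 0.00465) and had a log2 fold change of -0.10 ± 0.04 (adjusted p = 0.0573) against NaCl. Cenpa, the histone variant that marks centromeres, fell with Oxyrase added to lactate (-0.17 ± 0.03, adjusted p = 0.000423), with lactate+Oxyrase against NaCl (-0.13 ± 0.03, adjusted p = 0.00339) and with pyruvate against lactate (-0.14 ± 0.03, adjusted p = 0.00616). Cenpf, a large kinetochore protein, passed in no comparison, with a log2 fold change of -0.05 ± 0.07 with Oxyrase added to lactate (95% interval -0.20 to 0.09).

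Among the 6 members of spindle assembly and cytokinesis, 3 rose with Oxyrase added to lactate, 4 rose against NaCl and 0 fell in either. The shares of all genes were 26.1% higher and 23.6% lower in the first comparison, and 26.5% and 24.3% in the second. Anln (chr9:22331214-22389211), the gene of anillin, which anchors the contractile ring, had 63.1, 59.6 and 55.9 CPM in the lactate+Oxyrase libraries, 43.4, 47.9 and 47.8 CPM in pyruvate, 46.3, 45.7 and 42.6 CPM in lactate and 41.7, 41.7 and 42.9 CPM in NaCl libraries. Its lactate+Oxyrase libraries lay above the other 9, while pyruvate and lactate libraries overlapped. Anln rose 1.33-fold with Oxyrase added to lactate (0.41 ± 0.05, adjusted p = 6.95e-06) and 1.41-fold against NaCl (0.50 ± 0.05, adjusted p = 7.62e-07). Prc1, which bundles the microtubules of the central spindle, rose by 0.26 ± 0.04 (adjusted p = 1.11e-05) and 0.33 ± 0.04 (adjusted p = 6.81e-07) in the same comparisons, and by 0.12 ± 0.04 (adjusted p = 0.0308) with pyruvate against NaCl, the last call lost without NaCl 1, NaCl 2, pyruvate 2 or pyruvate 3. Tpx2, which activates Aurora A on the spindle, averaged 236 ± 4.48 CPM in lactate+Oxyrase, 188 ± 2.61 CPM in pyruvate, 208 ± 12.1 CPM in lactate and 190.2 ± 11.5 CPM in NaCl cells, and rose by 0.18 ± 0.05 (adjusted p = 0.00295) with Oxyrase added to lactate and 0.31 ± 0.05 (adjusted p = 2.13e-05) against NaCl. With pyruvate against lactate it fell (-0.14 ± 0.05, adjusted p = 0.0293), a call lost without lactate 1, lactate 2 or any 1 pyruvate library. Hmmr, a spindle pole protein, rose against NaCl with lactate+Oxyrase (0.24 ± 0.04, adjusted p = 0.00015) and with lactate (0.17 ± 0.04, adjusted p = 0.0202), the last call lost without NaCl 1, NaCl 2 or lactate 2.

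The regulators of the small GTPase RhoA at the cell equator passed the test in the pyruvate comparisons. Ect2, which activates RhoA, had 99.1, 108 and 101 CPM in the pyruvate libraries, against 95.3, 89.9 and 90.8 CPM in the NaCl libraries. The groups did not overlap, and Ect2 rose by 0.16 ± 0.05 (adjusted p = 0.0248) against NaCl, a call lost without NaCl 2, NaCl 3 or pyruvate 2, and by 0.20 ± 0.05 (adjusted p = 0.00431) against lactate. Racgap1, the partner of Kif23 in centralspindlin, had 165, 166 and 170.0 CPM in the pyruvate libraries, against 192, 188 and 194 CPM in the lactate libraries. Every pyruvate library lay below every lactate library, and Racgap1 fell by 0.20 ± 0.03 (adjusted p = 0.000242) against lactate. Against NaCl it fell by 0.11 ± 0.03 (adjusted p = 0.0248), a call lost without NaCl 2, pyruvate 1 or pyruvate 2. The log2 fold change with Oxyrase added to lactate was 0.04 ± 0.05 for Ect2 (95% interval -0.05 to 0.14) and -0.03 ± 0.03 for Racgap1 (95% interval -0.09 to 0.04).

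Counts of members called depended on single libraries in the comparisons with small changes. For lactate against NaCl, where 3 members passed, the count was 0 without NaCl 1, NaCl 2 or lactate 2, and 6 without NaCl 3. For pyruvate against NaCl, 3 members instead of 8 passed without NaCl 2 or pyruvate 2. For pyruvate against lactate, 12 instead of 19 passed without pyruvate 1. With any 1 library left out, the count lay between 19 and 23 with Oxyrase added to lactate (23 with all libraries) and between 20 and 23 with lactate+Oxyrase against NaCl (24 with all libraries). With libraries scaled by their totals alone, lactate+Oxyrase against NaCl gave 11 members higher and 12 lower in place of 15 and 9. Of the 77 calls of a member in a comparison, 50 held under all 19 alternatives, 27 were lost under at least 1 and 0 reversed.

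Other division genes were read from lists of neighbouring pathways. The S phase list, 26 genes of DNA replication and nucleotide supply, had 2 higher and 16 lower with Oxyrase added to lactate (69.2% called, against 49.7% of all genes; median -0.14) and 0 higher and 15 lower against NaCl (median -0.20); the members' medians were -0.01 and 0.02. Rrm1, a subunit of the enzyme that makes deoxynucleotides, fell with Oxyrase added to lactate (log2 fold change -0.58 ± 0.04, adjusted p = 5.74e-10). So did Mcm3, a subunit of the replicative helicase (-0.46 ± 0.03, adjusted p = 4.37e-09), and Ccne1, the gene of cyclin E1 (-0.41 ± 0.04, adjusted p = 2.85e-07). With pyruvate against lactate, 2 S phase genes were higher and 8 lower, and with pyruvate against NaCl 1 and 7. The list of cell cycle arrest and p53 genes, of which 14 of 16 were tested, had 9 higher and 0 lower with Oxyrase added to lactate (64.3% called). Cdkn1a, the gene of the CDK inhibitor p21, rose by 0.84 ± 0.05 (adjusted p = 4.45e-10) and Sesn2, a stress-induced regulator of growth signalling, by 1.38 ± 0.08 (adjusted p = 4.7e-10). With pyruvate against lactate, 8 of the 14 were higher and 1 lower (64.3%, against 24.0% of all genes), Cdkn1a by 0.53 ± 0.05 (adjusted p = 1.04e-06). With lactate against NaCl, 0 were higher and 3 lower, and Cdkn1a fell by 0.28 ± 0.05 (adjusted p = 0.00339).

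With both directions counted, genes that work beside the members were called about as often as all genes (49.7%) with Oxyrase added to lactate. Of all genes, 26.1% were higher and 23.6% lower. Of 30 other kinetochore and centromere genes, 5 were higher and 10 lower in that comparison (50.0% called). Cenpl, a subunit of the inner kinetochore network, rose by 0.40 ± 0.05 (adjusted p = 7.9e-06), and Mis18a, which helps to load CENP-A, fell by 0.34 ± 0.05 (adjusted p = 3.58e-05). Of 18 condensin and cohesin genes, 1 was higher and 9 lower in the same comparison (55.6%), with Smc4, a condensin ATPase (-0.41 ± 0.05, adjusted p = 3.91e-06), and Smc3, a cohesin ATPase (-0.37 ± 0.05, adjusted p = 3.06e-06), among the lower. Of 24 other kinesin, spindle and centrosome genes, 4 were higher and 6 lower (41.7%); against NaCl, Spag5 (astrin), a spindle protein, rose by 0.34 ± 0.04 (adjusted p = 1.71e-06). Of 16 APC/C subunits and regulators, 4 were higher and 5 lower (56.2%), with Fbxo5, whose product EMI1 inhibits the APC/C, among the lower (-0.40 ± 0.05, adjusted p = 8.92e-06). With lactate+Oxyrase against NaCl, the shares called of these lists, in the same order, were 46.7%, 83.3%, 50.0% and 37.5%, against 50.8% of all genes. There, 6 of the 18 condensin and cohesin genes were higher and 9 lower.

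Upstream of CDK1, 3 of 14 regulators were higher and 8 lower with Oxyrase added to lactate (78.6% called, against 49.7% of all genes). Ensa, an inhibitor of the phosphatase that reverses CDK1 phosphorylation, rose by 0.72 ± 0.05 (adjusted p = 8e-10), and Wee1, the kinase that holds CDK1 inactive, fell by 0.34 ± 0.06 (adjusted p = 0.000149). Of 16 MuvB, pocket protein and E2F genes, 2 were higher and 5 lower (43.8%); E2f2, an activating E2F (-0.56 ± 0.05, adjusted p = 8.69e-08), and Rbbp4, a MuvB subunit (-0.44 ± 0.03, adjusted p = 5.5e-09), were among the lower. Of 6 G1 cyclins and CDKs, 1 was higher and 2 lower (50.0%), with Cdk4 among the lower (-0.27 ± 0.04, adjusted p = 8.18e-06). With pyruvate against lactate, the shares called of these lists, in the same order, were 42.9%, 37.5% and 16.7%, against 24.0% of all genes. For lactate against NaCl, 2 of 14 CDK1 regulators were lower, 1 of 26 S phase genes was higher, and 1 of 30 kinetochore genes was higher and 1 lower. Of 15 hypoxia markers, 10 were higher and 1 lower with Oxyrase added to lactate, Ero1a by 1.52 ± 0.06 (adjusted p = 1.62e-12) and Vegfa by 1.12 ± 0.09 (adjusted p = 9.22e-09). Markers of this list were also called without Oxyrase, 7 higher and 0 lower with pyruvate against lactate (median 0.28), 4 higher and 0 lower with pyruvate against NaCl (median 0.17) and 1 higher and 3 lower with lactate against NaCl (median -0.01).

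At the members' starts, the changes in open chromatin that passed the test all went 1 way within a comparison, down in the Oxyrase comparisons and in lactate against NaCl and up in pyruvate against lactate. Each of the 40 members had 1 peak within 1 kb of its start (515 to 1799 bp wide, median 1045.5 bp, at least 487 counts in any library); for 7 genes without strand in the table, either end was used. In 6 of these peaks (Anln, Aurka, Hmmr, Kif4, Ndc80 and Nuf2) another gene starts as well. Libraries of the same replicate number often held the same place in their groups: at the 40 peaks NaCl 3 was the lowest of its group at 39, pyruvate 3 at 31 and lactate 3 at 22, but lactate+Oxyrase 3 at 13. The highest was lactate+Oxyrase 2 at 26 peaks, pyruvate 2 at 28 and NaCl 2 at 29, but lactate 1 at 28. With lactate+Oxyrase against NaCl, 0 member peaks rose and 27 fell, against 7.82% and 46.7% of the 12240 peaks at the starts of all genes (54.5% called), and the median log2 fold change was -0.35 for member peaks and -0.23 for all start peaks. With Oxyrase added to lactate, 0 rose and 12 fell, against 4.63% and 22.6% of start peaks (27.2% called), with medians of -0.18 and -0.12. With lactate against NaCl, 0 rose and 11 fell, against 0.384% and 18.2% (18.6% called), with medians of -0.18 and -0.12. With pyruvate against lactate, 13 rose and 0 fell, against 21.5% and 1.81% (23.3% called), with medians of 0.15 and 0.11. With pyruvate against NaCl, 0 member peaks and 0 of 75802 peaks (0.0%) passed by edgeR or by DESeq2; the lowest adjusted p was 0.172, and 4060 of all peaks but 0 member peaks had an unadjusted p under 0.05. In the other 4 comparisons the start peaks of all genes had the same sign of median as the member peaks. Over all 75802 peaks, wherever they lie, 15.6% rose and 12.8% fell with Oxyrase added to lactate (28.4% called), 21.5% and 19.2% with lactate+Oxyrase against NaCl (40.7%), 1.13% and 5.28% with lactate against NaCl (6.41%), and 6.84% and 4.78% with pyruvate against lactate (11.6%).

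Without NaCl 3, the member peaks that fell numbered 28 with lactate+Oxyrase against NaCl, 21 with lactate against NaCl and 16 with Oxyrase added to lactate, and 15 rose with pyruvate against lactate. The count with lactate against NaCl rested on single libraries: 1 peak fell without NaCl 1, 0 without NaCl 2 or lactate 3, and 5 without lactate 2. With Oxyrase added to lactate 6 fell without lactate+Oxyrase 3, and with pyruvate against lactate 7 rose without lactate 3. Scaling by library totals alone gave a median over all peaks of 0.137 for lactate+Oxyrase against NaCl (0.029 with TMM) and of 0.103 for lactate against NaCl (0.027 with TMM). Under that scaling 2 member peaks rose and 24 fell with lactate+Oxyrase against NaCl, 1 rose and 11 fell with Oxyrase added to lactate, 0 rose and 10 fell with lactate against NaCl, and 12 rose and 1 fell with pyruvate against lactate.

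**Figure D4:**
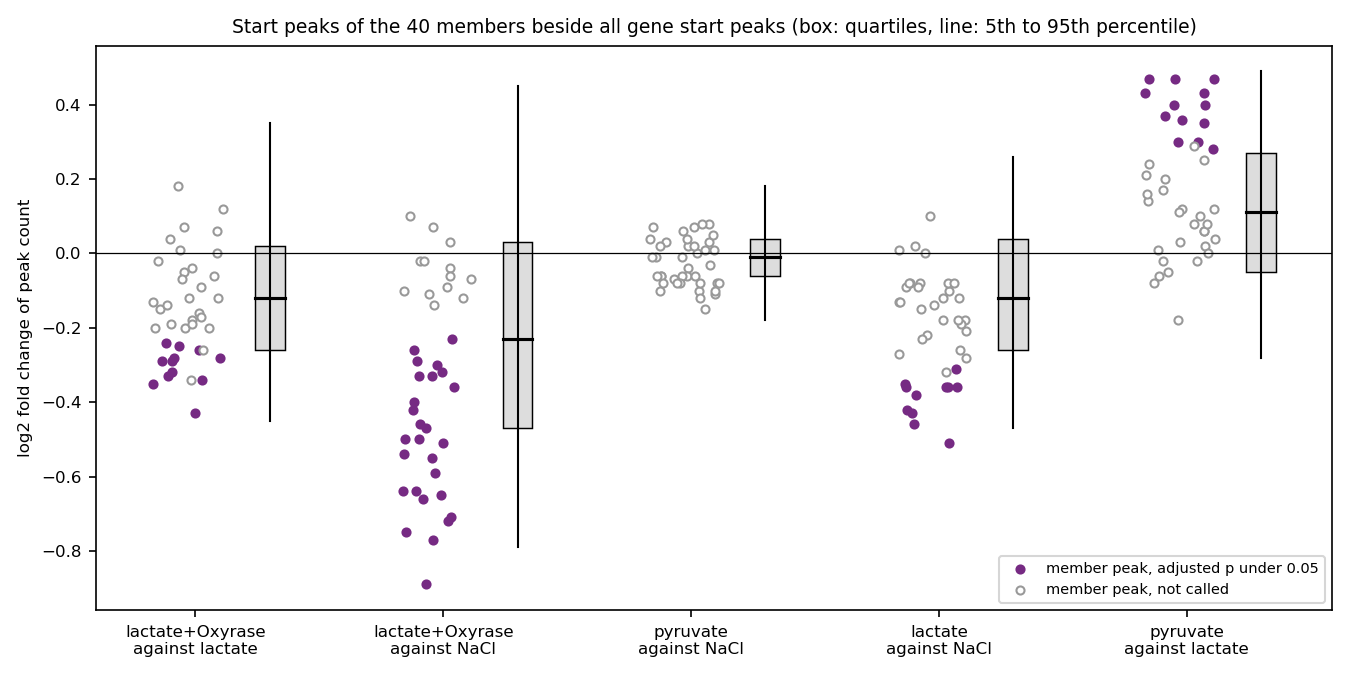
Log2 fold change (vertical axis) of the peak at the start of each of the 40 members (points, filled where adjusted p was under 0.05) in the 5 comparisons, beside the start peaks of all genes (box, quartiles and median; line, 5th to 95th percentile). Filled points lie below 0 in the Oxyrase comparisons and in lactate against NaCl, all lie above 0 in pyruvate against lactate, and there is none in pyruvate against NaCl.

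The peak at the start of Birc5 had the lowest log2 fold change of the member peaks with lactate+Oxyrase against NaCl. It had 27.1, 29.4 and 31.8 CPM in the lactate+Oxyrase libraries, 54.0, 58.9 and 51.8 CPM in pyruvate, 46.2, 35.5 and 37.3 CPM in lactate and 57.4, 60.0 and 46.4 CPM in NaCl libraries. The lactate+Oxyrase libraries lay below all others, and the lactate libraries lay below the NaCl libraries. Its log2 fold change was -0.89 ± 0.10 (adjusted p = 1.54e-09) with lactate+Oxyrase against NaCl and -0.43 ± 0.10 (adjusted p = 0.00102) with Oxyrase added to lactate, while that of the Birc5 transcript was -0.04 ± 0.04 against NaCl (95% interval -0.12 to 0.04). The Top2a peak had 21.6, 30.7 and 25.6 CPM in the lactate+Oxyrase libraries, 42.8, 46.2 and 40.6 CPM in pyruvate, 32.3, 32.8 and 28.3 CPM in lactate and 48.8, 52.0 and 32.5 CPM in NaCl libraries. Lactate+Oxyrase libraries lay below NaCl libraries, and NaCl 3 lay between lactate 1 and lactate 2. It fell by 0.77 ± 0.12 (adjusted p = 5.17e-07) with lactate+Oxyrase against NaCl, where the Top2a transcript rose. The Racgap1 peak had 15.8, 16.0 and 16.2 CPM in the lactate+Oxyrase libraries, 27.7, 30.3 and 25.3 CPM in pyruvate, 20.9, 21.3 and 17.9 CPM in lactate and 28.4, 30.3 and 22.3 CPM in NaCl libraries, and the lactate+Oxyrase libraries were the lowest 3 of the 12. It fell by 0.75 ± 0.10 (adjusted p = 5.1e-08) with lactate+Oxyrase against NaCl and rose by 0.47 ± 0.10 (adjusted p = 0.00121) with pyruvate against lactate, where the transcript of Racgap1 fell. The peaks of Ube2c (-0.72 ± 0.09), Bub1 (-0.71 ± 0.10), Kif11 (-0.66 ± 0.14) and Espl1 (-0.65 ± 0.09) followed in size among those that fell with lactate+Oxyrase against NaCl.

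The Aurkb peak had 18.2, 20.6 and 21.0 CPM in the lactate+Oxyrase libraries, 29.0, 32.7 and 28.0 CPM in pyruvate, 22.1, 23.2 and 22.8 CPM in lactate and 28.6, 30.9 and 25.2 CPM in NaCl libraries. Lactate+Oxyrase libraries lay below the other 9, and lactate libraries below the NaCl libraries. The peak fell with lactate+Oxyrase against NaCl (-0.50 ± 0.09, adjusted p = 2.04e-05) and with lactate against NaCl (-0.31 ± 0.09, adjusted p = 0.0304), where the log2 fold change of the Aurkb transcript was 0.00 ± 0.04. The Anln peak, which also holds the start of another gene, had 37.0, 35.2 and 36.6 CPM in the lactate+Oxyrase libraries, 45.7, 48.5 and 44.9 CPM in pyruvate, 43.9, 41.3 and 39.0 CPM in lactate and 53.8, 48.9 and 42.7 CPM in NaCl libraries, and fell by 0.42 ± 0.09 (adjusted p = 0.000205) with lactate+Oxyrase against NaCl while the Anln transcript rose. The Cdk1 peak had 51.1, 59.2 and 52.9 CPM in the lactate+Oxyrase libraries, 53.0, 52.8 and 49.0 CPM in pyruvate, 52.4, 50.3 and 54.3 CPM in lactate and 50.9, 53.7 and 50.7 CPM in NaCl libraries, with all groups overlapping, and its log2 fold change was 0.07 ± 0.09 (adjusted p = 0.537, 95% interval -0.10 to 0.25) with lactate+Oxyrase against NaCl. That of the Cenpe peak was 0.03 ± 0.09 (95% interval -0.15 to 0.22), while its transcript rose by 0.40 ± 0.07.

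Setting each member's transcript beside its peak, 10 members had a higher transcript and a lower peak with lactate+Oxyrase against NaCl, 6 had both lower, 11 had a lower peak with no transcript call and 8 had a transcript call with no peak call. These are 25%, 15%, 27.5% and 20.0% of the members, against 15.8%, 16.8%, 25.3% and 21.7% of the 9810 genes tested with a start peak. With Oxyrase added to lactate the members' numbers were 4, 4, 4 and 15 (10.0%, 10.0%, 10.0% and 37.5%, against 6.07%, 9.3%, 12.2% and 38.4%). With pyruvate against lactate, 7 members had a lower transcript and a higher peak, 1 (Bub1) had both higher, 5 had a higher peak with no transcript call and 11 a transcript call with no peak call (17.5%, 2.5%, 12.5% and 27.5%, against 4.58%, 3.11%, 20.4% and 19.1% of all such genes). Among the members and among all genes, lower peaks stood beside both higher and lower transcripts with lactate+Oxyrase against NaCl. Leaving out the 6 peaks that hold another gene's start, 24 of 34 peaks fell with lactate+Oxyrase against NaCl, 12 with Oxyrase added to lactate and 11 with lactate against NaCl, and 13 rose with pyruvate against lactate. Of 63 calls of a member peak in a comparison, 33 held under all 17 alternatives run on the peaks and 30 were lost under at least 1, among them all 11 with lactate against NaCl. Returning to the promoter letters, 10 of the 25 members with TTTGAA or TTCGAA rose and 4 fell with lactate+Oxyrase against NaCl, and 2 of the 8 without rose and 3 fell. For pyruvate against lactate, 3 of the 25 rose and 9 fell, and 1 of the 8 rose and 3 fell. These counts come from small groups and are given without a test.

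**Figure D5:**
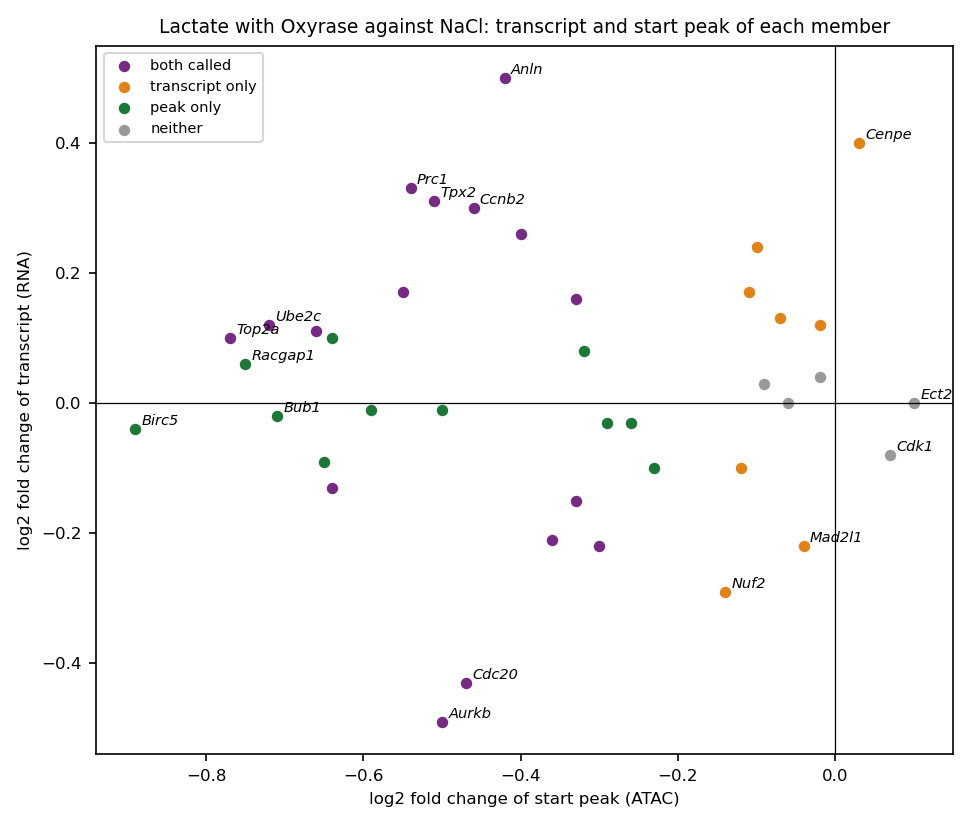
Log2 fold change of the start peak (horizontal axis, ATAC) and of the transcript (vertical axis, RNA) of each member with lactate+Oxyrase against NaCl; colours show whether both, the transcript alone, the peak alone or neither passed the test. Members whose peak fell lie both above 0 (Anln, Prc1, Tpx2, Ccnb2) and below 0 (Aurkb, Cdc20) on the transcript axis.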

How the data were processed

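RNA-seq and ATAC-seq were each measured in 12 libraries, 3 in each of 4 groups. The RNA table holds estimated counts per gene, which the authors made from poly(A) RNA; the submitters' processing notes name RSEM 1.2.12, Bowtie2 2.2.0, edgeR 3.20.9 and Trimmomatic. The ATAC table holds counts per peak (mm10) deposited after duplicates and mitochondrial reads were removed, per the file headers; the notes name BWA, Picard, MACS2 and bedtools. Of the nonzero estimated counts as deposited, 99.24% were whole (tolerance 1e-09), and of 460 genes with a value that was not whole and above 1, 448 were at 0 throughout 1 replicate number. What adjustment the authors made is not given in the sources used here, and one made by replicate number would lower the spread that the RNA tests see.

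Estimated counts were rounded to whole numbers and tested with edgeR 4.0.16 (R 4.3.3) by the quasi-likelihood test over all 12 libraries of an assay, with filterByExpr, TMM scaling and no replicate term. P-values were Benjamini-Hochberg adjusted over all features tested, and a call needed an adjusted p under 0.05. Log2 fold changes have standard errors; intervals are 95% with the total degrees of freedom of the fit (8 residual plus those borrowed across features). Of 55401 gene identifiers 55141 matched a symbol. A start peak is a peak that overlaps the stretch of 1 kb either side of a gene start. DESeq2 1.42.0, other scalings, the 6 libraries of a comparison alone, no filter, a replicate block and each library left out were run as alternatives, and the scripts were tested on simulated data. Tables were made with Python 3.11.15 and pandas 2.3.3, intervals of shares with scipy 1.17.1 and plots with matplotlib 3.10.9. The members, the gene lists and the tests were chosen with earlier results of these data known. Values in every library are given for 8 fixed members, for the called member of largest change in each of 9 role groups and for the called member of smallest p in each comparison. From each list, genes are named among the 3 called with the largest change.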

Additional observations from a re-analysis of the deposited data

How the results depend on the processing

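No call of a member in a comparison reversed. For pyruvate against NaCl, 2313 genes and 8 members were called; leaving out 1 library gave 1281 to 2441 genes and 3 to 9 members, and the replicate block gave 5 members. For lactate against NaCl, 1140 genes and 3 members were called; without the filter 1724 genes and 6 members, with DESeq2 7 members, with the replicate block 671 genes, and with 1 library left out 451 to 1299 genes and 0 to 6 members. For pyruvate against lactate, leaving out 1 library gave 12 to 20 members (19 with all). Among peaks, leaving out 1 library gave 684 to 11317 peaks (4857 with all) and 0 to 21 member peaks for lactate against NaCl, 3597 to 11151 peaks (8804 with all) and 7 to 15 member peaks for pyruvate against lactate, and 6 to 16 member peaks with Oxyrase added to lactate. The cause was not tested in any of these. With pyruvate against NaCl, the replicate block called 1 peak where 0 were called.

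The replicate block lost 11 of the 77 member calls: those of Cdc25c and Birc5 with Oxyrase added to lactate, Ccna2 and Cdc25c with lactate+Oxyrase against NaCl, Nuf2, Prc1 and Racgap1 with pyruvate against NaCl, and Mki67, Mad2l1, Kif23 and Tpx2 with pyruvate against lactate. Testing without the filter lost 10, those of Cdc25c (both comparisons), Birc5 and Ube2c with Oxyrase added to lactate, Top2a, Mybl2 and Kif11 with lactate+Oxyrase against NaCl, Prc1 and Racgap1 with pyruvate against NaCl, and Kif4 with pyruvate against lactate. Upper quartile scaling lost that of Mad2l1. Same-numbered RNA libraries had correlations of their deviations of -0.21 to -0.08, but an adjustment by replicate number before deposit would itself remove shared deviations, so these values cannot show whether the numbers pair the samples. For ATAC the correlations ran from -0.15 to 0.17, and 8 of 12 libraries were closest to their own number. ATAC library names run in consecutive sets that each hold 1 library of every group and 1 replicate number, and no label says what the libraries of a set share. Scaling by library totals turned the split of RNA calls for lactate+Oxyrase against NaCl to 3450 higher and 4007 lower (3915 and 3577 with TMM), and that of ATAC calls for lactate against NaCl to 2303 higher and 2764 lower (856 and 4001) and for pyruvate against lactate to 4119 and 6084 (5184 and 3620).

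With 3 libraries a group, small changes rest on single libraries. A transcript or peak that passed no test is not thereby shown to be equal between groups. At the lowest count of a member, 460, the counting error is 4.66% of the value, so it is largest for the members with few counts. The median counting error was 1.65%, below the median spread within a group of 2.69%. In 38 of 160 combinations of member and group the spread of the 3 libraries was below the counting error, and there it understates the noise.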
